A study of Mus musculus with 17 samples.

Results

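The libraries described here measured what PP1 did when given alone to mouse embryonic stem cells, before any switching on of RAF. They are the 3 PP1 libraries, from cell clones a, b and c, and the 2 DMSO libraries, from clones b and c, which makes 5 of the 17 libraries in the series. They were taken by their labelled treatment. The cells were of the E14tg2a line (129SV background). Erk1 and Erk2 had been knocked out in them and replaced by FLAG-ERK2 Q103A, an ERK2 with an enlarged pocket that PP1 and its analogues can block. They also carried cRAF-ErT2, in which 4-hydroxytamoxifen (4OHT) turns on the RAF kinase. The groups used were PP1 at 2 µM (3 libraries), a MEK inhibitor (MEKi) at 1 µM (3), 250 nM 4OHT for 2 h with PP1 (3), 250 nM 4OHT for 2 h (3) and DMSO without 4OHT (2). The 3 libraries of MEKi with 4OHT entered the fits, which pool the spread over all 17 libraries. Every group, DMSO included, shared the same alleles. All cells had been grown in serum and LIF with 2 µM Chir99021, an inhibitor of GSK3, and from 24 h before treatment the medium held serum and LIF with PD173074 at 250 nM, which blocks FGF receptors, so the basal state described is that of cells whose FGF receptors were already meant to be blocked. How long PP1 was present without 4OHT is not stated plainly in the labels. Ethynyl uridine at 5 mM, a nucleotide precursor that can be captured by click chemistry, was added for the final 15 minutes, and the captured RNA is called new RNA below. The replicates are clones of 1 cell line. The p-values set a difference between group means, without pairing by clone, against the pooled spread between libraries of these clones, and cover no other line.

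ERK is the last kinase of the RAS, RAF, MEK and ERK cascade, through which FGF and other growth factors signal. Active ERK drives immediate early genes such as Egr1 and Fos and, within the same hours, the genes of its own brakes: Sprouty and Spred proteins, which dampen signalling from receptors to RAF, and dual-specificity phosphatases such as DUSP6, which inactivate ERK itself. In mouse embryonic stem cells this signal prepares the cells to leave naive pluripotency, and inhibitors of MEK are used to hold them in the naive state. PP1 is also a known inhibitor of Src-family kinases.

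Totals were 5239690, 9361752 and 8126013 counts in PP1 a, b and c, and 11093390 and 10044412 in DMSO b and c. Levels below are CPM, counts scaled to a common library size with TMM factors, in the order of clones a, b and c for PP1 and b and c for DMSO. Pearson's r of log2 CPM over genes was 0.976 to 0.989 among the PP1 libraries, 0.991 between the DMSO libraries, and 0.973 to 0.989 between the groups (genes are not independent replicates). A set of 14 loci, among them Cdk8 and Lars2, took 42.03%, 16.09% and 21.67% of the counts in PP1 a, b and c, and 12.39% and 15.72% in DMSO b and c, so PP1 a had the fewest counts for all other genes. The summed level of 12 markers of pluripotent stem cells was 4258 to 5063 CPM in PP1 and 4258 to 4618 CPM in DMSO, while 12 fibroblast markers summed to 17.1 to 19.97 CPM in PP1 and 18.76 to 19.72 CPM in DMSO, with S100a4 at 0 in all 5 libraries. Markers of trophoblast, neuroectoderm and 2-cell-like cells overlapped between PP1 and DMSO in their sums, with Tpbpa, Tubb3 and Tcstv1 at 0, and primitive streak markers summed to 19.11 to 21.18 CPM in PP1 and 16.85 to 16.86 CPM in DMSO. In bulk libraries, fewer cells of a type and less RNA per cell cannot be told apart.

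PP1 alone changed few genes. Of 14907 genes tested, 36 differed between PP1 and DMSO at a Benjamini-Hochberg adjusted p under 0.05 in edgeR's quasi-likelihood test, which is 0.241% of genes. Of these, 24 were lower in PP1 (0.161%) and 12 were higher (0.0805%). The lower genes included Egr1, Spry4 and Dusp6, which are read out from ERK activity, with the first 2 of these having the largest falls, and 10 of the 12 higher genes were histone genes. Changes of at least 2-fold were made by 2 of the lower genes, Egr1 and Spry4, and by 11 of the higher genes. At an unadjusted p under 0.05 there were 1132 lower and 479 higher genes (10.8% of those tested), and over all genes the log2 fold change had a median of -0.02. The number of calls depended on the libraries in the fit, since it was 4 without DMSO b, 3 without DMSO c, 14 without PP1 a and 9 without PP1 b. It also moved to between 9 and 23 without 4OHT a or c or any 1 of the MEKi with 4OHT or PP1 with 4OHT libraries, none of which is in the contrast, while Egr1 and Spry4 were called under all 30 alternatives run. With library totals as the only scaling 14 genes were called, 57.1% of them higher beside 33.3% with TMM, and the median of all genes was -0.21.

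**Figure D1:**
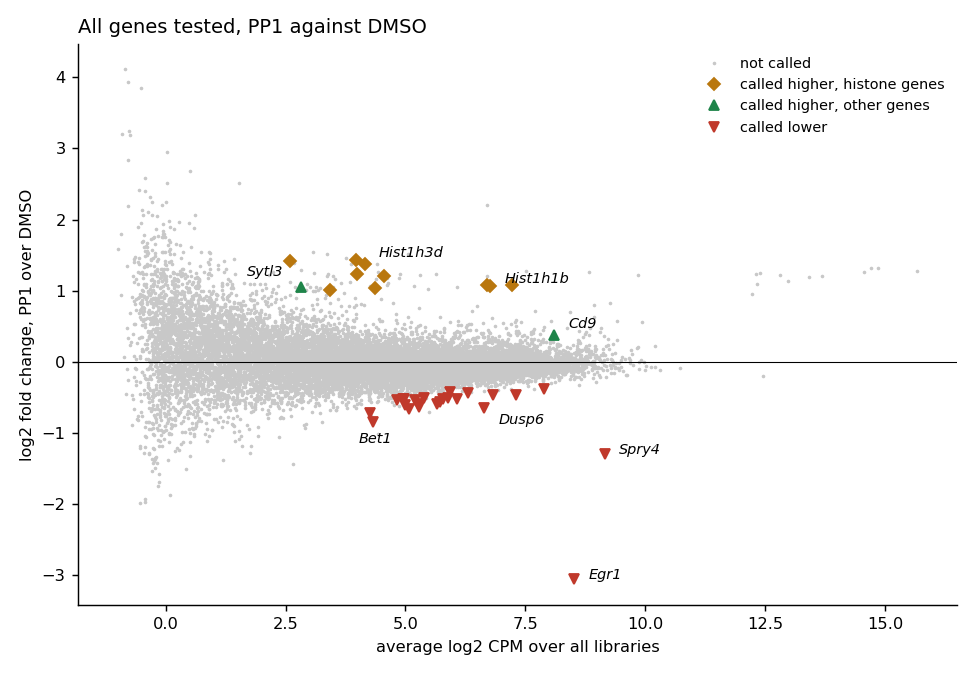
Log2 fold change of PP1 over DMSO against average log2 CPM, 1 point per gene for the 14907 genes tested. Red triangles are the 24 genes called lower, brown diamonds the 10 histone genes and green triangles the 2 other genes called higher. Egr1 at -3.06 and Spry4 at -1.30 stand apart from the other lower genes, which lie between -0.84 and -0.38.

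Egr1, an immediate early zinc-finger transcription factor (chromosome 18, 34859823 to 34864984 in mm10, plus strand, ENSMUSG00000038418.7), had 8.17, 5.08 and 5.51 CPM in PP1 and 41.3 and 57.1 CPM in DMSO. No PP1 library came near a DMSO library, and the mean was 6.25 ± 1.67 CPM in PP1 (SD, n = 3) and 49.2 ± 11.2 CPM in DMSO (SD, n = 2). The fitted fall was 8.36-fold (log2 -3.06 ± 0.19, edgeR adjusted p = 2.8e-08), the largest of any called gene. Percentages of the DMSO level here and below are ratios of mean CPM, which differ slightly from the fitted folds, and Egr1 was left at 12.7%. Spry4, a Sprouty protein (chromosome 18, 38586247 to 38601415, minus strand, ENSMUSG00000024427.7), had 50.3, 41.9 and 47.3 CPM in PP1 and 107 and 120 CPM in DMSO. Its mean was 46.5 ± 4.24 CPM in PP1 and 114 ± 9.27 CPM in DMSO, with a fitted 2.47-fold fall (log2 -1.30 ± 0.10, edgeR adjusted p = 2.8e-08) and 40.8% of the DMSO level left.

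Dusp6, the ERK phosphatase (chromosome 10, 99263231 to 99267489, plus strand, ENSMUSG00000019960.8), had 50.3, 49.1 and 47.7 CPM in PP1 and 70.6 and 83.4 CPM in DMSO. The 3 PP1 libraries lay within 3 CPM of each other and below both DMSO libraries. The fitted fall was 1.57-fold (log2 -0.65 ± 0.11, edgeR adjusted p = 0.012) and left 63.6% of the DMSO level. This call was held under 19 of 30 alternatives. It was lost without DMSO b, DMSO c or PP1 b (edgeR adjusted p = 0.06 without PP1 b). It was also lost, with edgeR adjusted p from 0.051 to 0.063, without any 1 of the 3 MEKi with 4OHT libraries or without PP1 with 4OHT a or b. Fits with only the groups compared, with clones b and c only, and with PP1, MEKi and DMSO libraries only lost it too.

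The promoter of Dusp6 is shown as that of a called ERK readout, from the RefSeq table of the same build (GRCm38.p6), read 5′ to 3′ on the plus strand over chr10:99262981-99263280, from 250 bases before the start to 50 after it. Capitals mark a CCAAT box on the opposite strand, which reads ATTGG here.
Dusp6: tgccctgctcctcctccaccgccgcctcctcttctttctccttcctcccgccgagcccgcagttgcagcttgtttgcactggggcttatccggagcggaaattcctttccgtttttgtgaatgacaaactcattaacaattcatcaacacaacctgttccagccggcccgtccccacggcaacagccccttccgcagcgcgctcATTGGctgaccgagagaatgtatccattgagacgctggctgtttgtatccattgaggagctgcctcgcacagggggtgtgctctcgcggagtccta
Neither the ETS site CCGGAA nor the CArG box of serum response factor is spelled in these 300 bases on either strand, which says nothing of binding elsewhere. Only this longer form of the ETS site was searched for, and the window does spell its shorter core GGAA.

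Among ERK feedback inhibitors, 23 of 24 listed genes were tested, and 2 were lower in PP1 than in DMSO and 0 higher, with a median log2 fold change of -0.13 beside -0.02 for all genes. At an unadjusted p under 0.05, 8 were lower and 1 was higher, beside 1132 lower and 479 higher of all 14907 genes. Spry2, a second Sprouty gene, had 56.7, 56.1 and 62.6 CPM in PP1 and 70.2 and 82 CPM in DMSO, with every PP1 library below both DMSO libraries (log2 -0.38 ± 0.09, edgeR adjusted p = 0.087). Spred1 had 105, 130 and 121 CPM in PP1 and 157 and 148 CPM in DMSO, also without overlap (-0.35 ± 0.09, edgeR adjusted p = 0.1). Dusp4, a nuclear phosphatase of ERK, had 13.8, 17.1 and 13.6 CPM in PP1 and 19.8 and 19.4 CPM in DMSO (-0.38 ± 0.15, edgeR adjusted p = 0.37). Across all genes tested, every PP1 library was below every DMSO library for 16.9% and above for 11.6%, so a lack of overlap is common here. For Dusp16 and Spred2, the most highly expressed of the list that were not called, PP1 and DMSO overlapped, with log2 fold changes of -0.17 ± 0.10 and -0.13 ± 0.08. Spred1 is named after its values were seen.

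Among immediate early genes and ETS factors, 43 of 47 were tested, 1 was lower (Egr1) and 0 were higher. The log2 fold change was below 0 for 31 of 43, beside 8058 of all 14907 genes, with a median of -0.14. At an unadjusted p under 0.05, 9 were lower and 3 higher, beside 1132 and 479 of all genes. Junb, an AP-1 subunit, had 15.3, 11.1 and 12.6 CPM in PP1 and 18.8 and 22.6 CPM in DMSO (-0.71 ± 0.16, edgeR adjusted p = 0.08). Fos had 1.79, 3.19 and 3.31 CPM in PP1 and 4.69 and 7.41 CPM in DMSO (-1.02 ± 0.27, edgeR adjusted p = 0.13), and Myc, which promotes growth and ribosome production, had 19.7, 14 and 14.5 CPM in PP1 and 20.1 and 26 CPM in DMSO (-0.56 ± 0.18, edgeR adjusted p = 0.22). For each of these 3 genes every PP1 library lay below both DMSO libraries, and none passed the threshold in edgeR. Fos was called with DESeq2 (adjusted p = 0.027). The ETS factors Etv4 and Etv5, which are induced by FGF signalling, had log2 fold changes of -0.27 ± 0.13 and -0.12 ± 0.08. Junb, which overlaps Prdx2, is named after its values were seen.

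The other 21 lower genes are in no pathway list fixed for this comparison. Their falls were small, from -0.84 to -0.38 on the log2 scale, which left between 54.7% and 76.8% of the DMSO level. In each of the 24 lower genes every PP1 library lay below both DMSO libraries. The genes were picked by this same contrast, and the same held for 16.9% of all genes tested. Bet1, a SNARE of transport from the endoplasmic reticulum to the Golgi, had 12.8, 15.1 and 16.2 CPM in PP1 and 24.5 and 29.2 CPM in DMSO (-0.84 ± 0.14, edgeR adjusted p = 0.0064), a call that was lost without DMSO c (0.4). Adnp2 had 135, 145 and 162 CPM in PP1 and 198 and 210 CPM in DMSO (-0.47 ± 0.08, edgeR adjusted p = 0.0081), with the call lost without DMSO b (0.058), DMSO c (0.4) or PP1 b (0.053). Etv3, an ETS repressor, had 17.4, 19.6 and 21.7 CPM in PP1 and 29.8 and 30.6 CPM in DMSO (-0.61 ± 0.11, edgeR adjusted p = 0.02).

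Several of these genes serve basic cell functions: Ndufa12 is a subunit of respiratory complex I (-0.60 ± 0.12), Sco1 delivers copper to cytochrome oxidase (-0.57 ± 0.12), Dad1 is a subunit of oligosaccharyltransferase (-0.53 ± 0.09), Rad52 acts in DNA repair (-0.54 ± 0.10), and Parp11 is an ADP-ribosyltransferase (-0.54 ± 0.12). Over the 30 alternatives Dad1 was called under 24, Rad52 under 15, Ndufa12 under 14, Sco1 under 7 and Parp11 under 6. Asb1 (-0.72 ± 0.15), Zfp933 (-0.66 ± 0.13), Zfp715 (-0.64 ± 0.12), Fbxo46 (-0.59 ± 0.12) and Zfp943 (-0.53 ± 0.11) completed the 15 largest falls. These were called under 10, 17, 23, 12 and 4 of the 30, in that order.

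Ccdc174, Fam192a, Tmx1 and Zfp719 (each -0.52) and Uchl5 (-0.45), Zbtb41 (-0.42) and the deacetylase Sirt1 (-0.38) are named after their values were seen, and the Cdc42 effector Cdc42ep4 (-0.47 ± 0.09) returns under the comparison of the inhibitors. For Adnp2, Bet1, Fam192a, Parp11, Zbtb41 and Zfp943 both DMSO libraries lay above all of the other 15 libraries of the series, which was so for 1.56% of genes tested. Reads of Fbxo46, Parp11, Zfp943 and Fam192a cannot be told apart from those of the overlapping genes Qpctl, Gm43633, Gm9772 and Rspry1, since the strand setting of the counting is not known. In the RefSeq windows, CCGGAA was spelled on either strand in 10 of the 21 lower genes with a window, beside 14.9% of all 32851 windows, the short cAMP-response site TGACG in 12 beside 20.8%, and TATAAA in 0 beside 13.6%. Here and below a gene counted if any of its windows had the site. The background counts single windows and includes genes that were not tested, so the 2 measures are not alike.

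**Figure D2:**
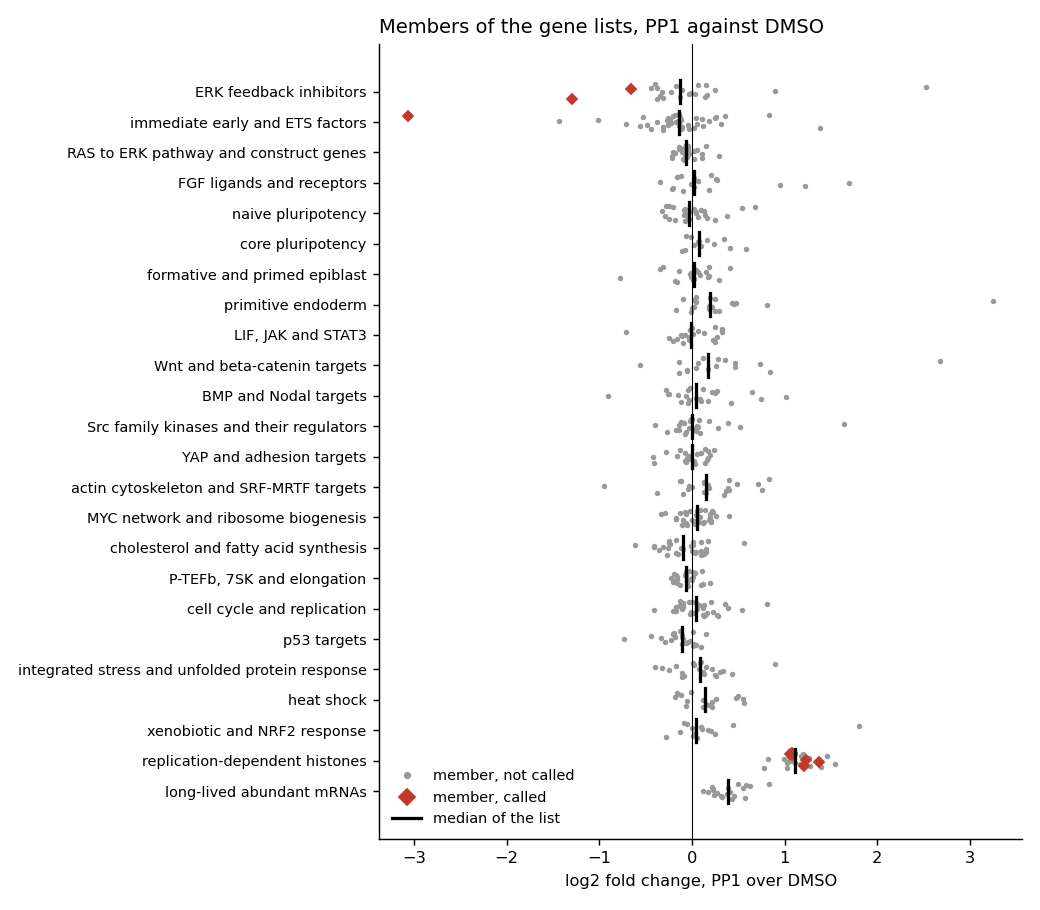
Log2 fold change of PP1 over DMSO for each tested member of the pathway and cell state lists, 1 row per list, without the marker lists of other cell types. Grey points are members not called, red diamonds members called, and black bars list medians. Calls lie in 3 lists, the medians of the others plotted lie between -0.11 and 0.19 apart from the long-lived mRNAs at 0.39, and the histones lie wholly above 0.

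The genes that rose with PP1 were almost all histone genes, whose RNA is made mainly in S phase. Hist1h1b, which encodes a linker histone (chromosome 13, 21779883 to 21780625, minus strand, ENSMUSG00000058773.2), had 162, 177 and 160 CPM in PP1 and 75.3 and 84.5 CPM in DMSO (log2 1.06 ± 0.13, edgeR adjusted p = 0.00039). Hist1h3d, an H3 gene, had 31.1, 26 and 22.4 CPM in PP1 and 11.1 and 8.98 CPM in DMSO (1.37 ± 0.18, edgeR adjusted p = 0.00045). In both genes all PP1 libraries stood above both DMSO libraries, which was so for 11.6% of all genes tested. Each call was lost without 1 DMSO library, b for Hist1h1b and c for Hist1h3d. The other 8 called were Hist1h2ae (1.43), Hist1h4j (1.41), Hist1h3a (1.23), Hist1h4i (1.21), Hist1h1a (1.08), Hist1h1d (1.08), Hist1h3g (1.03) and Hist1h3h (1.01). With the clone as a block Hist1h2ae (edgeR adjusted p = 0.07) and Hist1h3a (0.058) were not called, and over 29 alternatives they were called under 7 and 9. Histone genes are near-identical copies between which reads can be split, so single genes are uncertain and the family is better read by its sums.

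Of 67 histone symbols 57 were tested, and all 57 had a log2 fold change above 0 (0.72 to 1.54, median 1.10), beside 6847 of all 14907 genes. Of the 57, 54 had an unadjusted p under 0.05, beside 479 genes higher at that threshold among all tested. The 67 symbols summed to 2360, 1585 and 1424 CPM in PP1 and 775.8 and 842.4 CPM in DMSO, and the lowest PP1 library lay above both DMSO libraries. Under every alternative that tested histones their median log2 fold change lay between 0.83 and 1.28. The summed level of each core and linker family was higher in PP1 by a ratio of means from 2.17 to 2.41, although 0 of 15 H2B genes were called singly. H1 genes summed to 755 ± 120 CPM in PP1 and 348 ± 15.1 CPM in DMSO (a ratio of 2.17), H2A genes to 148 ± 63.7 CPM in PP1 and 61.5 ± 6.87 CPM in DMSO (2.41), H2B genes to 302 ± 106 CPM in PP1 and 138 ± 2.75 CPM in DMSO (2.19), H3 genes to 289 ± 85.3 CPM in PP1 and 133 ± 10.1 CPM in DMSO (2.17), and H4 genes to 296 ± 128 CPM in PP1 and 128 ± 12.2 CPM in DMSO (2.31). By position, the 47 tested genes of the Hist1 cluster had a median log2 fold change of 1.12, with 10 called, and the 8 of the Hist2 cluster a median of 1.00, with 0 called. In the cell cycle and replication list 0 of 33 tested genes were called, beside 0.241% of all genes, with a median of 0.05.

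Histones were also higher in MEKi than in the same DMSO libraries, with 8 of 57 called and a median of 0.84, and between PP1 and MEKi 0 of 57 were called, with a median of 0.28 for PP1 over MEKi. In PP1 with 4OHT against 4OHT their median was 0.03, with 4 called higher and 0 lower.

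Other measures were also higher in PP1 than in DMSO. Within PP1 the library with the highest histone sum, clone a, also had the largest share of counts in the 14 loci. It was likewise for MEKi b (1903 CPM, 32.58%) within MEKi and 4OHT b (1320 CPM, 28.89%) within 4OHT. The remaining groups were alike, with MEKi with 4OHT b (1257 CPM, 16.12%), PP1 with 4OHT c (1233 CPM, 19.06%) and DMSO c (842.4 CPM, 15.72%). Without PP1 a, 3 histone genes were called and the median log2 fold change of the family was 0.84. A list of long-lived abundant mRNAs had log2 fold changes above 0 in 20 of 20 genes (median 0.39, 0 called), beside 6847 of all 14907 genes. The list summed to 12240, 7526 and 7864 CPM in PP1 and 6597 and 7308 CPM in DMSO. The background over long genes was 5.7, 4.09 and 4.21 CPM per Mb in PP1 and 2.98 and 3 in DMSO. Within 4OHT, clone b was highest in the long-lived list (13440 CPM) as well as in the histones. Between groups the 2 did not always go together. In 4OHT c the long-lived list was at 10640 CPM and the histones at 840.3 CPM, beside 7308 and 842.4 CPM in DMSO c. Within MEKi the background was highest in clone a, at 10.5 CPM per Mb, beside 4.93 in clone b, which had the highest histone sum. The part of these measures in the histone result was not tested. The DMSO libraries lay below all of the other 15 for 26 of the 57 histone genes, beside 0.812% of all genes.

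**Figure D3:**
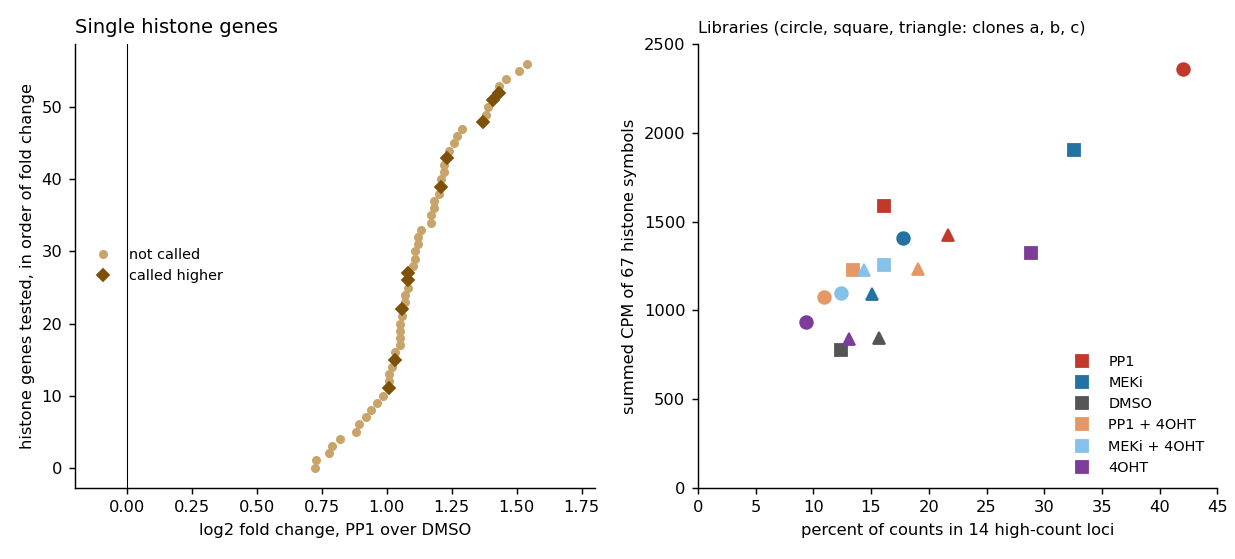
Left, log2 fold change of PP1 over DMSO for the 57 histone genes tested, sorted, with the 10 called genes as dark diamonds; all lie between 0.72 and 1.54. Right, the summed CPM of 67 histone symbols in each of the 17 libraries against the percent of counts in 14 high-count loci, coloured by group and shaped by clone.

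The promoters of these 2 histone genes, from the same RefSeq table (GRCm38.p6), are given because the genes moved together. They are read 5′ to 3′ on the strand of the gene, chr13:21780576-21780875 on the minus strand for Hist1h1b and chr13:23575513-23575812 on the plus strand for Hist1h3d. Capitals mark the TATA box TATAAA and the CCAAT box, on either strand.
Hist1h1b: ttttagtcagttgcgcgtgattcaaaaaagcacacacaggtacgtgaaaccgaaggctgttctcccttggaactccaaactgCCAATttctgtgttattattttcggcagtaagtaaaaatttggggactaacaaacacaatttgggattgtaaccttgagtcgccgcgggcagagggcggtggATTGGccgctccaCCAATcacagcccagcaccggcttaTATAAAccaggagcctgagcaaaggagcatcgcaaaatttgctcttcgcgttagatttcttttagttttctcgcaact
Hist1h3d: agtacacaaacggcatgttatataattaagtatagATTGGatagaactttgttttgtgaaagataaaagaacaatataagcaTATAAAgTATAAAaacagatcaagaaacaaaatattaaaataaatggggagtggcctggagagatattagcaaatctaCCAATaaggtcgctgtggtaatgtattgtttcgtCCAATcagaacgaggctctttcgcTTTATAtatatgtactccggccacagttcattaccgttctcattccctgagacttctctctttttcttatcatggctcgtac
In Hist1h1b, TATAAA lies 28 to 23 bases before the start, a CCAAT box 53 to 49 bases before it, another on the opposite strand 66 to 62 bases before it, and a further copy 168 to 164 bases before it. TATAAA was spelled in 8 of the 9 called histone genes with a window, beside 13.6% of all windows, and CCAAT in 7 of 9 beside 37.4%. The place of TATAAA varied. Its only copy lay 142 to 137 bases before the start in Hist1h2ae, on the opposite strand, and 137 to 132 bases before it in Hist1h4i. In Hist1h4j it ran from 2 bases before the start to 3 after it. CCGGAA was in 0 of the 9.

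Beyond the histones, 2 genes rose. Cd9, a tetraspanin of the cell surface (chromosome 6, 125460266 to 125494791, minus strand), had 248, 242 and 241 CPM in PP1 and 183 and 194 CPM in DMSO (log2 0.37 ± 0.08, edgeR adjusted p = 0.047). Both DMSO libraries lay below all of the other 15 for this gene. The call was lost without any 1 of the 5 libraries compared (edgeR adjusted p from 0.061 to 0.3) and without PP1 with 4OHT c (0.068). Sytl3, a synaptotagmin-like protein, had 7.15, 9.85 and 9.19 CPM in PP1 and 4.77 and 3.8 CPM in DMSO (1.05 ± 0.22, edgeR adjusted p = 0.04), and it overlaps Ezr.

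The MEK inhibitor left Spry4, Dusp6 and Spry2 lower than PP1 did, while Egr1 was not separated between the inhibitors. The 2 comparisons with DMSO share the same DMSO libraries, so the difference between the inhibitors was tested directly. In PP1 against MEKi 11 genes were called, 0.0738% of those tested, and all 11 were higher in PP1. At an unadjusted p under 0.05, 300 genes were higher and 306 lower in PP1. Against DMSO itself MEKi had 67 genes lower and 12 higher, with 8 histone genes among the higher (0.53% of genes in all), or 19 lower and 1 higher with library totals as the only scaling. Library by library, the number of calls between PP1 and MEKi was 6 without MEKi c, 6 without PP1 b and 7 without PP1 c, with Spry4 and Dusp6 called under all 18 alternatives.

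Id3, an inhibitor of helix-loop-helix factors best known as a BMP target (chromosome 4, 136143497 to 136145755), had 10.5, 10.9 and 9.68 CPM in PP1 and 2.27, 4.25 and 1.46 CPM in MEKi (log2 2.06 ± 0.23, edgeR adjusted p = 2.5e-05), beside 11.8 and 13.1 CPM in DMSO. It was left at 83.2% of the DMSO level by PP1 and 21.4% by MEKi, the widest gap of the 11. Spry4 had 50.3, 41.9 and 47.3 CPM in PP1 and 16.4, 19.3 and 17 CPM in MEKi (1.40 ± 0.11, edgeR adjusted p = 4.8e-08), leaving 40.8% of the DMSO level with PP1 and 15.4% with MEKi. Dusp6 had 50.3, 49.1 and 47.7 CPM in PP1 and 22, 31.1 and 20.4 CPM in MEKi (1.02 ± 0.11, edgeR adjusted p = 2.5e-05), leaving 63.6% with PP1 and 31.8% with MEKi. Spry2 had 56.7, 56.1 and 62.6 CPM in PP1 and 31.3, 35 and 34.3 CPM in MEKi (0.80 ± 0.09, edgeR adjusted p = 2.5e-05), leaving 76.8% with PP1 and 44.1% with MEKi. No PP1 library of these 4 genes was as low as any MEKi library. Id3 and Spry2 were each called under 17 of 18 alternatives. Id3 missed the threshold when only PP1 and MEKi were fitted (edgeR adjusted p = 0.051). Spry2 missed it when each library was scaled by its total alone (edgeR adjusted p = 0.39).

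The promoter of Spry2 is shown as that of a Sprouty gene left lower by MEKi than by PP1, from the same table and build on the minus strand of chr14:105896770-105897069. Capitals mark the ETS site CCGGAA, 33 to 38 bases after the start.
Spry2: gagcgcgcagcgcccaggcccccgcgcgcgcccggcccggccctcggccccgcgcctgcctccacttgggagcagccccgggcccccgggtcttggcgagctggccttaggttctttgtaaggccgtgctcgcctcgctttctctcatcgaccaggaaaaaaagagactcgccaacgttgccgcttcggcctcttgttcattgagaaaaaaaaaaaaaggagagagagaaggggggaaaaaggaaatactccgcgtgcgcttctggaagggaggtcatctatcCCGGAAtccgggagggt
CCGGAA was spelled in 2 of the 8 genes of this comparison that had a window.

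The others had smaller differences in the same direction. Those reported are Noct (0.66 ± 0.10), a nocturnin that overlaps Gm38357, Zfp819 (0.64 ± 0.13), Zfp36l1 (0.57 ± 0.10), which promotes mRNA decay, Tiparp (0.54 ± 0.08), an ADP-ribosyltransferase, Cdc42ep4 (0.50 ± 0.09) and Enc1 (0.45 ± 0.09). Over the 18 alternatives, Tiparp was called under 16, Noct under 15, Cdc42ep4 under 12, Zfp819 and Zfp36l1 under 11, and Enc1 under 8. None of these genes was called when each library was scaled by its total alone, or when only PP1 and MEKi were fitted. Zfp819 and Enc1 were close to the threshold in the main fit (edgeR adjusted p = 0.047 and 0.046). Cdc42ep4 had 80.9, 89.4 and 87.2 CPM in PP1, 59.6, 64 and 60 CPM in MEKi, and 116 and 123 CPM in DMSO. Of the 11 genes 3 were also called lower in PP1 than in DMSO (Spry4, Dusp6 and Cdc42ep4). For 10 of the 11 every PP1 library lay below both DMSO libraries, beside 16.9% of all genes tested. Zfp819 was the exception, with 34.5, 50.1 and 46.9 CPM in PP1 and 47.4 and 41.8 CPM in DMSO.

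For Egr1 no difference was called. It had 8.17, 5.08 and 5.51 CPM in PP1 and 7.19, 5.56 and 3.59 CPM in MEKi, with the libraries interleaved, and was left at 12.7% of the DMSO level by PP1 and 11.1% by MEKi. The log2 difference of PP1 over MEKi was 0.14 with an approximate 95% interval from -0.39 to 0.67 (edgeR adjusted p = 0.98). That interval does not reach the difference fitted for Spry4 or Dusp6. For Myc the difference was 0.96 (0.54 to 1.38, edgeR adjusted p = 0.051), for Fos 0.84 (0.10 to 1.58, 0.98) and for Junb 0.15 (-0.22 to 0.52, 0.98).

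**Figure D4:**
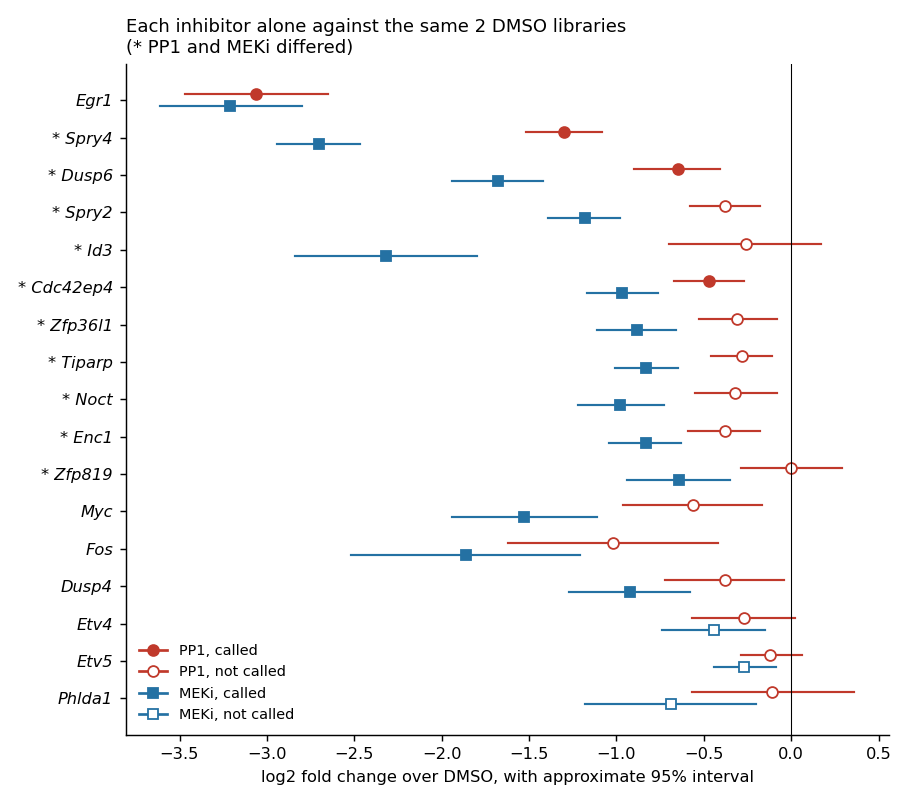
Log2 fold change over DMSO with approximate 95% intervals for PP1 (red circles) and MEKi (blue squares), 1 row per gene; filled symbols are called. Both columns rest on the same 2 DMSO libraries, and an asterisk marks genes called between PP1 and MEKi, 10 of the 11. Egr1 is at -3.06 with PP1 and -3.21 with MEKi, whereas Spry4 is at -1.30 and -2.70.

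The same dose of PP1 given with 4OHT provides libraries that share none with PP1 or DMSO alone. There PP1 with 4OHT differed from 4OHT at 6238 genes, of which 3188 were higher (21.4%) and 3050 lower (20.5%). The split depended on scaling, since library totals alone gave 3818 higher and 969 lower, and 4883 and 1785 in that order once the 14 loci were left out. Of the 24 genes lower with PP1 alone 9 were also lower there (37.5% of the 24 and 0.295% of the 3050) and 0 were higher. They were Egr1, Spry4, Dusp6, Etv3, Zfp715, Zfp719, Cdc42ep4, Ccdc174 and Sirt1. Egr1 had 181, 181 and 166 CPM in PP1 with 4OHT and 1800, 1860 and 1900 CPM in 4OHT, a fitted 10.5-fold fall (log2 -3.39 ± 0.13) beside the 8.36-fold fall without 4OHT. For Spry4 the falls were 2.99-fold with 4OHT and 2.47-fold without, and for Dusp6 1.79-fold and 1.57-fold.

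The difference between the PP1 effects with and without 4OHT was -0.33 for Egr1 (approximate 95% interval -0.85 to 0.19, edgeR adjusted p = 0.33), -0.28 for Spry4 (-0.57 to 0.01, 0.12) and -0.19 for Dusp6 (-0.51 to 0.14, 0.37), none of which was called. The starting levels were far apart, with Egr1 at 1850 ± 47.5 CPM in 4OHT and 49.2 ± 11.2 CPM in DMSO. Over all genes 26.5% were called in this test, 2246 above 0 and 1697 below it, or 3713 and 444 in that order with library totals alone and 3528 and 1140 once the 14 loci were also left out. Of the 24 lower genes 13 were called above 0, and 1, Sirt1, was called below 0. The 13 included Bet1 (0.84, edgeR adjusted p = 0.0015), Asb1 (0.86, 0.0015) and Adnp2 (0.58, 0.00022). The genes were picked by the contrast without 4OHT, which is part of the test, so these counts are a description. Of the 12 higher genes 8 were called below 0 and 0 above it, and Cd9 was lower in PP1 with 4OHT than in 4OHT (-0.48, edgeR adjusted p = 4.2e-06), having been higher in PP1 than in DMSO.

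**Figure D5:**
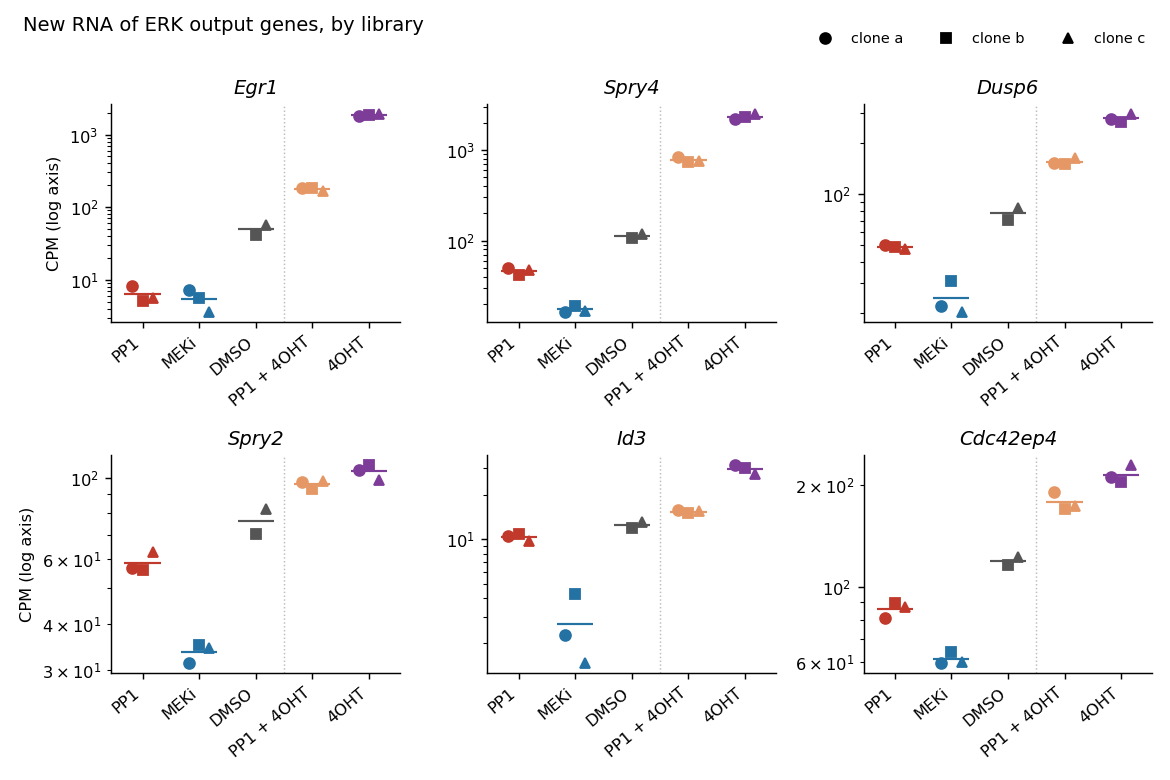
New RNA of 6 genes in CPM on a log axis, 1 point per library with circles, squares and triangles for clones a, b and c, and bars for group means. To the left of the dotted line are the groups without 4OHT. PP1 lies below DMSO in all 6 genes and above MEKi in 5, the exception being Egr1, whose PP1 and MEKi points interleave.

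No gene of the lists for cell state was called, which is near the share over all genes (0.241%) for lists of this size. In naive pluripotency, 28 of 28 genes were tested and 0 were called, with a median log2 fold change of -0.04. Of the 28, 12 were above and 16 below 0, beside 6847 and 8058 of all 14907 genes. In MEKi 5 of the 28 were lower than in DMSO, beside 67 of all genes. Between PP1 and MEKi 0 of the 28 were called, with a median of 0.05. Nanog had 399, 300 and 319 CPM in PP1 and 296 and 363 CPM in DMSO (log2 0.04, approximate 95% interval -0.26 to 0.33). Klf4 was at 0.13 (-0.05 to 0.31), Esrrb at -0.08 (-0.25 to 0.09) and Prdm14 at 0.14 (-0.14 to 0.41), and all 4 overlapped between the groups. Klf5, named after its values were seen, had 295, 261 and 284 CPM in PP1 and 342 and 356 CPM in DMSO (-0.32 ± 0.07, edgeR adjusted p = 0.08). Among core factors, Pou5f1 was at 0.16 ± 0.28 and Sox2 at 0.02 ± 0.11. Formative and primed epiblast (22 tested, median 0.02) and primitive endoderm (20 tested, median 0.19) had 0 called too, with Otx2 at -0.02 ± 0.17 and Gata6, at 2.33 to 3.57 CPM in PP1 and 1.81 to 2.04 CPM in DMSO, at 0.48 ± 0.37.

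No gene of the pathway itself or of the Src family list was called. The 25 genes of the RAS to ERK pathway had a median log2 fold change of -0.06, with 7 above and 18 below 0, beside 6847 and 8058 of all 14907 genes. The 24 tested genes of Src-family kinases and their regulators had a median of -0.00476, and Src had 89.1, 101 and 105 CPM in PP1 and 94.9 and 90.8 CPM in DMSO (0.09 ± 0.09). These are levels of new RNA, and kinase activity was not measured. Adhesion and YAP targets (22 tested), SRF-MRTF targets of the actin cytoskeleton (23), the MYC network (37), LIF and STAT3 (22), Wnt targets (17), BMP and Nodal targets (23), p53 targets (22), heat shock (18), integrated stress (23), NRF2 and xenobiotic response (16), elongation factors (26) and FGF ligands and receptors (17, with Fgfr2, which is also among the 14 loci) had 0 called. Over all genes 0.241% were called, so 0 calls in lists of these sizes is near that share. In cholesterol and fatty acid synthesis 0 of 29 were called, with a median of -0.10. At an unadjusted p under 0.05, 6 were lower, beside 1132 of all 14907 genes. The 13 mitochondrial symbols had no counts.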

How the data were processed

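New RNA was captured after ethynyl uridine labelling and sequenced in 17 libraries. The authors deposited raw counts per gene, which per the submitters' processing notes came from STAR and featureCounts on mm10. Versions, annotation, strand setting and multimapping were not given in the sources used here. Genes were located by symbol in GENCODE M21 (25595 of 25899 symbols, 98.8%), and promoters came from RefSeq (GRCm38.p6; 38 of 44 called genes).

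The deposited counts of all 17 libraries were fitted together with edgeR 4.0.16 (R 4.3.3) by robust quasi-likelihood, with TMM scaling, filterByExpr (14907 genes kept), 1 term per group and Benjamini-Hochberg adjustment over all genes kept. The residual degrees of freedom were 11 and the biological coefficient of variation 0.098. A gene was called at an adjusted p under 0.05. Standard errors and 95% intervals are approximate, from the F statistic. Log2 CPM used a prior count of 2. A count of 0 allows up to 3 counts, which is 0.766, 0.299 and 0.368 CPM in PP1 a, b and c, and 0.247 and 0.278 CPM in DMSO b and c, for counting error only. The fit was run on simulated counts with the same spread for every gene and no differences between clones, which does not test how stable the calls are. The column of PP1 clone c carries an extra letter in its name whose meaning is not given.

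The members and gene lists were chosen with earlier results of these data known. Named genes were a fixed set, the 15 largest called rises and falls against DMSO, the 10 largest against MEKi, list members that were called with the 2 most expressed that were not, and the 5 smallest adjusted p in each direction. Poorly annotated symbols were passed over, and others are marked as named after their values were seen.

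Clone letters pair libraries across groups, since the labels give the same clone the same letter. The residuals of same-clone libraries correlated at 0.086 on average (40 pairs, 16 of them above 0.1), and those of different clones at -0.043 (80 pairs). Residuals were centred within each group, which ties the value for different clones to that for the same clone, so it is no separate result. For PP1 and DMSO they were 0.096 in clone b and 0.077 in clone c. Alternatives covered scaling, filters on low counts, DESeq2 1.42.0, limma 3.58.1, the clone as a block, the libraries fitted and each library left out. Markers of other cell types are given as summed CPM. Some results are not reported here.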

Additional observations from a re-analysis of the deposited data

Results flagged for a closer look

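The effect of PP1 with 4OHT minus its effect without, on the log2 scale, passed an edgeR adjusted p under 0.05 for 32 of the genes named here, in a test that called 26.5% of all genes. The genes that PP1 alone had changed were chosen by a contrast that is part of this difference.

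Among ERK readouts it was -3.59 for Phlda1, -2.09 for Fos and -1.17 for Dusp4, none of which was called with PP1 alone. Among naive pluripotency genes of the fixed set, those that passed were above 0, at 1.64 for Prdm14, 0.82 for Tbx3, 0.68 for Nanog, 0.67 for Esrrb and 0.57 for Klf4. Klf2 and Tfcp2l1, of the same set, did not pass, and the rest of the naive list was not looked at in this way. In PP1 with 4OHT against 4OHT, 12 of the 28 naive genes were higher and 5 lower.

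Among histone genes it was -1.31 for Hist1h4j, -1.20 for Hist1h3a, -1.14 for Hist1h2ae, -0.92 for Hist1h3d, -0.90 for Hist1h3h, -0.89 for Hist1h4i and -0.80 for Hist1h3g. Cd9 was at -0.86. From the comparison with MEKi, Zfp819 was at -0.81 and Noct at -0.55.

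Among genes lower with PP1 alone it was 0.86 for Asb1, 0.84 for Bet1, 0.58 for Adnp2, 0.52 for Zfp943, 0.51 for Rad52, 0.50 for Fam192a, 0.47 for Zfp933, 0.46 for Sco1, 0.45 for Parp11, 0.45 for Uchl5, 0.42 for Tmx1, 0.40 for Zbtb41 and 0.37 for Dad1. Sirt1 was the exception at -0.36.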

How the results depend on the processing

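No named gene changed sign with a call under any alternative. Of the 36 genes called in PP1 against DMSO, Egr1 and Spry4 were called under all 30 alternatives, a gene was called under a median of 15, and Zfp943 under 4. The count of 36 became 14 with library totals, 23 with TMM without the 14 loci, 88 with DESeq2 (43 higher, 45 lower), 6 with only the groups compared and 7 with clones b and c only. It ranged from 3 to 44 with 1 library left out, being 4 without DMSO b, 3 without DMSO c, 14 without PP1 a, 9 without PP1 b and 32 without PP1 c. After seeing the data, leaving out libraries of other groups was added: it gave 19 without 4OHT a and 14 without 4OHT c, 11, 10 and 10 without MEKi with 4OHT a, b and c, and 13, 9 and 23 without PP1 with 4OHT a, b and c. Also added were PP1, MEKi and DMSO libraries only, with 5, and TMM without histone symbols, with 13, where histones were not tested. The cause was not tested.

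MEKi against DMSO, 79 genes, gave 20 with library totals, 127 with DESeq2, 23 with only the groups compared and 19 to 52 with 1 library left out. PP1 against MEKi, 11 genes, gave 3 with library totals, 20 with DESeq2, 3 with only the groups compared and 6 to 13 with 1 library left out. Fos (adjusted p = 0.027) and Spry2 (0.049) against DMSO were called with DESeq2. Myc in PP1 against MEKi was called with DESeq2 (adjusted p = 0.0014), with no filter (edgeR, 0.0097) and without MEKi a (edgeR, 0.023). Histone list members called higher were 6, and 3 without PP1 a. The called immediate early and ETS members were 1, and 2 with library totals.

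With the clone as a replicate block, PP1 against DMSO had 52 calls (19 higher, 33 lower), 34 of them shared with the 36, MEKi against DMSO had 120, and the immediate early and ETS list had 2. DMSO had 2 libraries and none from clone a, and PP1 a was the shallowest library, so small changes of weakly expressed genes are the least certain.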
